A study of Rattus norvegicus with 12 samples.

Results

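The genes described here are 10 genes known from the epicardium and from mesothelium, found by their symbols in a table of 34700 genes: Msln, Upk3b, Upk1b, Lrrn4, Cdh3, Epcam, Krt19, Wt1, Tbx18 and Tbx4. All 10 were present, and each had 1 row. They were chosen by symbol with their read counts in these 12 rats already known, so their levels and differences are given as a description and were not tested as a finding. RNA of the left ventricle's anterior wall was sequenced in 12 male Sprague-Dawley rats, operated on at 8 weeks of age, with 3 rats in each of 4 groups. In the Sham rats the chest surgery was done but the left anterior descending artery was not ligated, and they stayed sedentary. The HF rats had the artery ligated, which leads to an infarct and heart failure, and stayed sedentary. The HFE rats had the ligation and did 8 weeks of treadmill running, at 60 min daily on 5 days per week. The BAIBA rats had the ligation and were given β-aminoisobutyric acid, a metabolite released by exercising muscle, by gavage for 8 weeks, with 75 mg per kg of body weight each day. The paper lists Sham and HF groups both in its exercise study, with HFE, and in its BAIBA study, and describes water gavage of them for the BAIBA study. The labels do not say which study the Sham and HF rats here came from. Study and treatment therefore cannot be told apart in BAIBA against HFE. The hearts of every group were removed 12 weeks after the operation. The methods give the area around the infarct as the tissue of the BAIBA group, while elsewhere the same text names that area for HF and BAIBA alike. Treatment and the area sampled therefore cannot be told apart in BAIBA against Sham or HFE, and by the methods alone also not against HF. By the other passage, the area sampled is likewise not separable in HF against Sham or HFE. No gavage is stated for the HFE rats.

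The epicardium is a single sheet of mesothelium over the surface of the heart, of the same kind as the linings of the lung surface and of the pericardial sac. Its cells carry surface proteins and keratins of an epithelium, and during development some of them leave the sheet, lose these proteins and enter the heart wall as fibroblasts and mural cells, a process steered by transcription factors such as Wt1 and Tbx18. After an infarct the sheet is known to reactivate parts of that programme. In a piece of ventricular wall the sheet is a very small share of the tissue, and in such bulk RNA fewer cells of a type and less RNA per cell cannot be told apart.

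Each library held between 14812541 and 19732588 counts on genes, and 6 cardiomyocyte genes together took between 30854 and 39410 CPM in every rat (CPM is a gene's share of the library's counts, scaled by TMM factors). In 2 libraries, genes of another organ stood far above those of the other rats. BAIBA rat 1 had 6869 counts of Sftpc, 1404 of Sftpb and 2908 of Sftpa1, the surfactant proteins of lung alveoli, against at most 6, 3 and 2 counts in any other rat. The 6 lung epithelial genes looked at summed to 701 CPM in BAIBA rat 1 and to between 4.98 and 9.88 CPM in the other rats. HF rat 1 had 5023 counts of Rag1 and 1101 of Dntt, which act in developing lymphocytes of the thymus, against at most 2 and 23 counts elsewhere. A list of 10 thymocyte and thymic epithelial genes, made after these values were seen, summed to 648 CPM in HF rat 1 and to between 16.9 and 43.3 CPM in the others. HF rat 1 and BAIBA rat 3 also had the highest sums of 6 adipocyte genes, at 31.1 and 29.6 CPM against 3.60 to 13.0 CPM in the others. Many results that rest on BAIBA rat 1 or HF rat 1 are therefore given with and without them, but not all. DESeq2 was run only with all rats of a comparison.

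Mesothelin (Msln), the surface glycoprotein for which mesothelial cells are best known, had the widest range. Its counts were 13, 13 and 38 in the Sham rats, 93, 1 and 0 in the HF rats, 1, 0 and 0 in the HFE rats and 648, 16 and 170 in the BAIBA rats, each in the order of replicates 1 to 3. In CPM these were 1.36 ± 0.98 in Sham, 1.80 ± 3.06 in HF, 0.022 ± 0.038 in HFE and 15.8 ± 18.2 in BAIBA (SD, n = 3 rats each). The HFE rats lay below all Sham rats and below all BAIBA rats, while the HF rats spread from 0 to 93 counts. From the lowest to the highest rat Msln covered a 362-fold range of CPM + 0.1, and 91.7% of its counts came from BAIBA rat 1, BAIBA rat 3 and HF rat 1.

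The uroplakin Upk3b, a membrane protein shared by urothelium and mesothelium, followed the same rats. It had 4, 4 and 9 counts in Sham, 37, 0 and 2 in HF, 0, 0 and 0 in HFE and 188, 1 and 103 in BAIBA. Against the limit of 3 counts that 0 counts over the HFE group allow, Upk3b was at least 5.54-fold higher in Sham, at least 11.4-fold higher in HF and at least 91.7-fold higher in BAIBA. The bound for BAIBA was 49.3-fold without BAIBA rat 1, where 103 of the 104 counts were from BAIBA rat 3. Without HF rat 1 the HF group had only 2 counts of Upk3b and no bound. These bounds pool the counts of a group and allow for counting noise in the HFE group alone. They take the counts of the other group as exact and leave out the spread between rats. Upk1b, the tetraspanin partner of uroplakins in the urothelial plaque, had 2, 1 and 10 counts in Sham, 44, 0 and 0 in HF, 1, 0 and 0 in HFE and 201, 4 and 53 in BAIBA. Lrrn4, a leucine-rich repeat membrane protein used as a mesothelial marker, had 2, 2 and 11 counts in Sham, 39, 0 and 0 in HF, 0, 1 and 0 in HFE and 153, 0 and 77 in BAIBA. For all 3 genes the order of the highest rats was BAIBA rat 1, BAIBA rat 3, HF rat 1, and these rats held 94.3%, 94.3% and 94.4% of the counts of Upk3b, Upk1b and Lrrn4. The uroplakins known mainly from the urothelium, Upk1a, Upk2 and Upk3a, had at most 7 counts in any rat, and Upk3bl1, a relative of Upk3b, had at most 6.

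Because Upk3b, Upk1b and Lrrn4 varied together, the 250 bases before their annotated starts are shown here, beside those of Tbx18, which did not vary with them. The sequences are RefSeq promoters of GRCr8, a build that the deposited counts were not made on as far as the sources used here say, and each reads 5′ to 3′ on the strand of the gene. Upk3b is at chr12:26274241-26274490 on the minus strand, Upk1b at chr11:75459131-75459380 on the plus strand, Lrrn4 at chr3:140603987-140604236 on the minus strand and Tbx18 at chr8:97559966-97560215 on the minus strand. Capitals mark matches to any of 7 motifs searched on both strands.
Upk3b: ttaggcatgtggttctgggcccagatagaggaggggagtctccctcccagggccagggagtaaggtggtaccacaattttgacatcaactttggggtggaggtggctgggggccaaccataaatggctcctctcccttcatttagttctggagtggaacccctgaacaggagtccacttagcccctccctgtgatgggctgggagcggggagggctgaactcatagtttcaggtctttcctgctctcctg
Upk1b: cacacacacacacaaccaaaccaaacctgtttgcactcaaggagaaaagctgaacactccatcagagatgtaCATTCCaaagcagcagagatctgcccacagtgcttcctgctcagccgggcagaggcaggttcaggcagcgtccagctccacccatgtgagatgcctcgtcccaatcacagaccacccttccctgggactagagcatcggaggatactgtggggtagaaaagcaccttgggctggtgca
Lrrn4: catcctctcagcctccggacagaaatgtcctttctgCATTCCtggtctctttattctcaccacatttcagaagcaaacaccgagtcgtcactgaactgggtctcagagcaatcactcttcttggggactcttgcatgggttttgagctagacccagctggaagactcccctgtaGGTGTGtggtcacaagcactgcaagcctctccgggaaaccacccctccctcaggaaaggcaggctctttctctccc
Tbx18: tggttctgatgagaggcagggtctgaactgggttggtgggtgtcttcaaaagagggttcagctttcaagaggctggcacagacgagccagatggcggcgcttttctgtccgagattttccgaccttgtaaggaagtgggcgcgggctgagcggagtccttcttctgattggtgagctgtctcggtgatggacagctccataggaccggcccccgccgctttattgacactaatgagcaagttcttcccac
The capitals CATTCC are the reverse complement of GGAATG, the site of TEAD factors, which act with Yap1 and Wwtr1 in epicardial cells. It lies 178 bases before the start in Upk1b and 214 bases before it in Lrrn4, and 12.1% of the 33469 promoters in the table hold it in the same window. The T-box core GGTGTG lies 76 bases before the start of Lrrn4 and is held by 15.4% of all promoters. It also lies 107 bases before the start of Wt1, which did not vary with these genes, and 12 bases before that of Tbx4. The other 5 motifs, with no match in these 4 windows, were GTGGGAG, part of a Wt1 site, in 7.51% of all promoters, the GC box GGGCGG in 30.5%, the AP-1 site TGACTCA in 4.05%, the E-box CACCTG in 15.9% and the GATA site AGATAA in 10.3%. No motif matched in Upk3b or in Tbx18. Such matches are letters in a window and not measured sites. Promoters were found for 7 of the 10 genes, and Msln, Cdh3 and Krt19 were not among them.

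The adhesion and keratin genes had lower counts, and their highest library was again BAIBA rat 1. P-cadherin (Cdh3), an adhesion protein between epithelial cells, had 2, 2 and 10 counts in Sham, 21, 0 and 6 in HF, 0, 0 and 0 in HFE and 73, 4 and 12 in BAIBA. It was at least 4.57-fold higher in Sham, 7.92-fold higher in HF and 27.9-fold higher in BAIBA than the limit of 3 counts over the HFE group. Without HF rat 1 the bound for HF was 2.57-fold, and without BAIBA rat 1 that for BAIBA was 7.59-fold. These bounds, too, pool counts, take those of the other group as exact and leave out the spread between rats. The 2.57-fold bound rests on 6 counts. Keratin 19 (Krt19), an intermediate filament protein of simple epithelia, had 1, 5 and 2 counts in Sham, 22, 2 and 0 in HF, 3, 0 and 0 in HFE and 139, 0 and 10 in BAIBA. Its groups overlapped in every comparison, and BAIBA rat 1 held 75.5% of its counts. Epcam, an adhesion molecule found in most epithelia, had 4, 4 and 0 counts in Sham, 46, 4 and 1 in HF, 1, 1 and 2 in HFE and 92, 5 and 3 in BAIBA. Unlike the mesothelial surface genes it was low in BAIBA rat 3, with 3 counts there, and only the libraries with lung or thymic transcripts had more than 5. The same held for E-cadherin (Cdh1), with 65 counts in HF rat 1, 135 in BAIBA rat 1 and at most 6 in any other rat. The part that lung or thymic epithelium had in these values was not tested.

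Tbx4, a T-box transcription factor of the hindlimb and of lung mesenchyme, had 2, 1 and 1 counts in Sham, 2, 1 and 0 in HF, 0, 0 and 0 in HFE and 77, 4 and 2 in BAIBA. BAIBA rat 1, the library with the surfactant transcripts, held 85.6% of all its counts, and no other rat had more than 4. In BAIBA rat 3, where Msln had 170 counts and Upk3b 103, Tbx4 had only 2.

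The transcription factors Wt1 and Tbx18 gave another picture. Wt1, the zinc finger factor of the embryonic epicardium that some vessel cells of the heart also make, had 293, 269 and 284 counts in Sham, 253, 385 and 405 in HF, 295, 275 and 371 in HFE and 319, 355 and 312 in BAIBA. Its level was 17.7 ± 0.89 CPM in Sham, 19.9 ± 4.76 in HF, 20.7 ± 2.42 in HFE and 19.8 ± 2.63 in BAIBA (SD, n = 3). Its lowest rat was HF rat 1, at 14.5 CPM, a library in which the mesothelial surface genes were high. Tbx18, a T-box factor of the epicardium that mural cells also make, had 160, 99 and 62 counts in Sham, 126, 113 and 162 in HF, 90, 117 and 135 in HFE and 184, 114 and 112 in BAIBA, or 6.57 ± 2.58, 7.58 ± 0.88, 7.55 ± 1.36 and 8.11 ± 1.88 CPM (SD, n = 3). From the lowest to the highest rat Wt1 covered a 1.62-fold range and Tbx18 a 2.48-fold range, against 41.7-fold to 362-fold for the other members. In the 12 rats 5 endothelial genes summed to between 423 and 754 CPM, lowest in BAIBA rat 1, and 6 mural genes to between 395 and 540 CPM. Single genes could vary more, as Vwf did from 99.5 to 346 CPM. The part of vessel cells in the levels of Wt1 and Tbx18 was not tested.

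**Figure D1:**
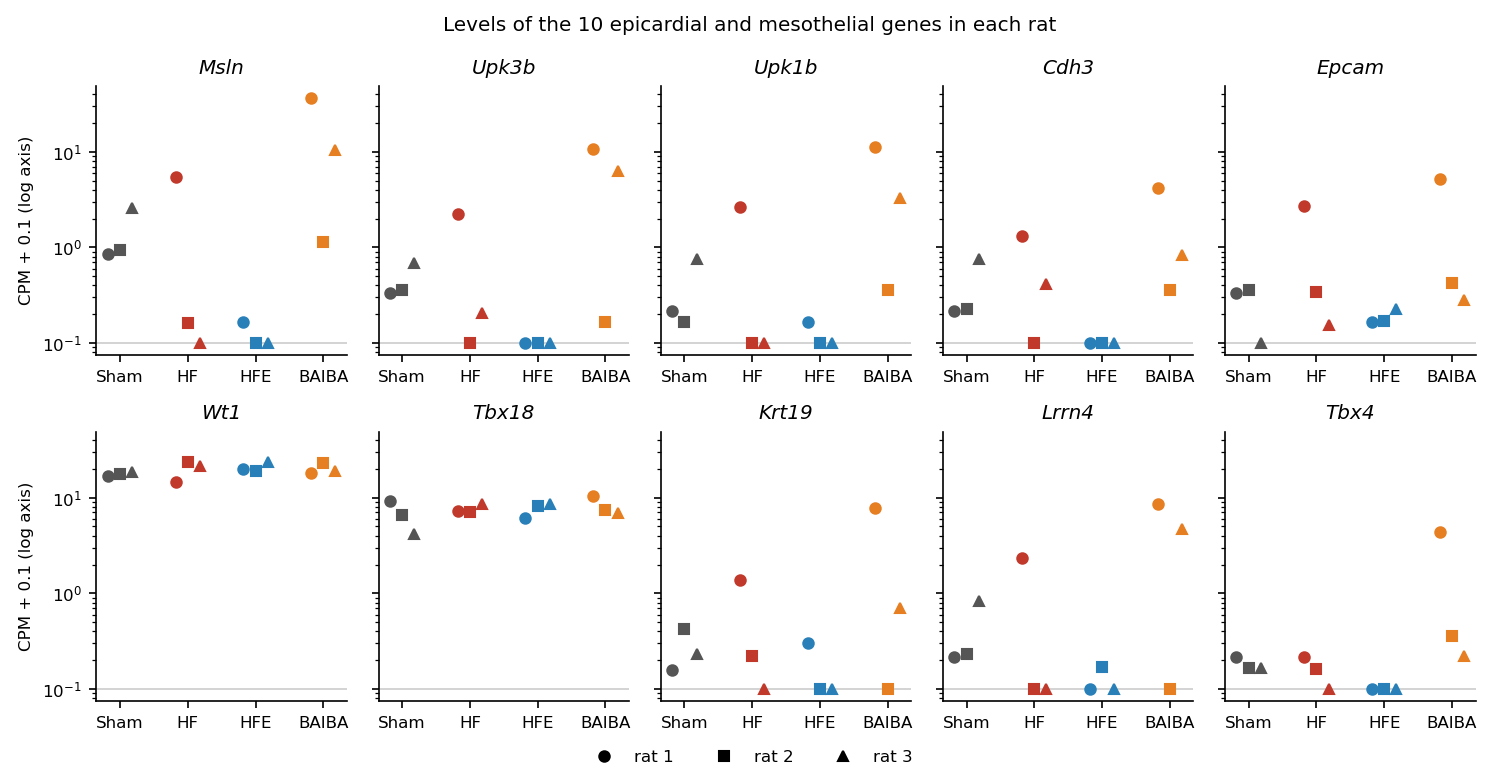
Each panel plots 1 gene, with CPM + 0.1 on a log axis for the 3 rats of each group (circle, rat 1; square, rat 2; triangle, rat 3), and the grey line marks 0 counts. Wt1 and Tbx18 stay level in all 12 rats, while the other genes are at or near 0 in the HFE rats and highest in BAIBA rat 1.

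Per unit of length the order of the genes depended on the group. By the deposited FPKM, in which counts are divided by gene length and library size, Wt1 led in Sham at 6.82 ± 0.44, followed by Tbx18 at 1.44 ± 0.54 and Msln at 0.635 ± 0.464 (SD, n = 3). In HFE, Wt1 was at 7.71 ± 0.83 and Tbx18 at 1.59 ± 0.24, and every other member had a mean of at most 0.0488. In BAIBA, Msln had a mean of 7.66 ± 9.05 and Wt1 of 7.64 ± 0.65, but only in BAIBA rat 1 was Msln above Wt1 (17.8 against 7.30), and in BAIBA rats 2 and 3 it was below, at 0.454 against 8.39 and at 4.72 against 7.22. Upk3b at 4.93 ± 4.73 and Upk1b at 2.79 ± 3.32 were next. The SDs of these mesothelial genes were about as large as their means, so within BAIBA the order of Msln, Upk3b and Upk1b was not resolved beyond the spread.

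Over the 12 rats the members fell into a set that varied together and a pair that did not. Pearson correlations of log2(CPM + 0.1) were computed for the 8 members that reached 10 counts in 3 or more rats, which leaves out Epcam and Tbx4. They are descriptions, since the points share libraries, depth and the rats that stand apart. Among Msln, Upk3b, Upk1b, Cdh3, Krt19 and Lrrn4 the 15 pairs had r from 0.784 to 0.979, with a median of 0.914 (n = 12 rats), and Upk3b with Lrrn4 was the closest pair. Without BAIBA rat 1 the median was 0.857, and without BAIBA rat 1 and HF rat 1 it was 0.795, with Krt19 and Cdh3 the least alike at 0.345. The 12 pairs of Wt1 or Tbx18 with these 6 genes had r from -0.616 to 0.154, with a median of -0.267. These 12 pairs were all negative without BAIBA rat 1, from -0.696 to -0.253 with a median of -0.467, and without both rats the median was -0.456. Over all 28 pairs the median was 0.807, and without both of these rats it was 0.489. The split into these sets was made after the values were seen.

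**Figure D2:**
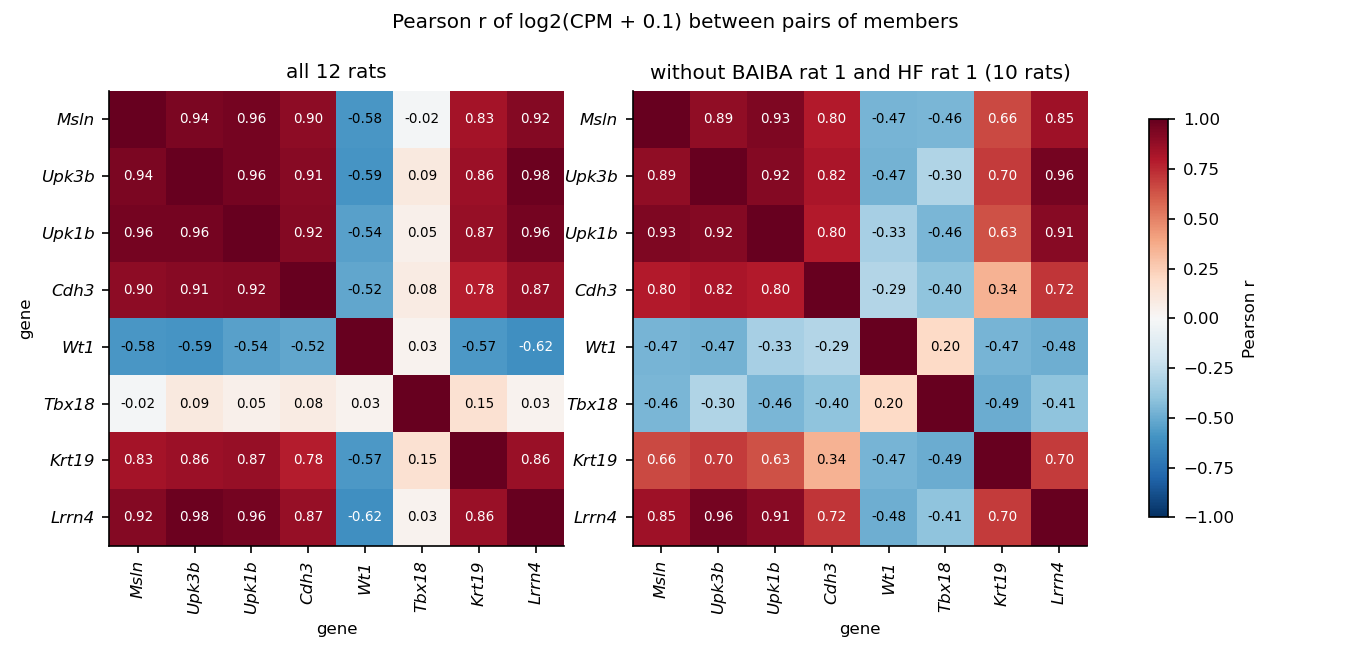
Each square gives Pearson's r of log2(CPM + 0.1) between 2 genes, on the left over 12 rats and on the right over 10 rats without BAIBA rat 1 and HF rat 1, with red for positive and blue for negative r. The median r among the 6 genes other than Wt1 and Tbx18 is 0.914 on the left and 0.795 on the right.

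The 8 members other than Wt1 and Tbx18 were summed to set them beside the other gene lists. Their sum was 1.73, 2.07 and 5.32 CPM in the Sham rats, 17.4, 0.491 and 0.477 in the HF rats, 0.399, 0.138 and 0.127 in the HFE rats and 87.6, 2.18 and 25.9 in the BAIBA rats. Of the 8 genes, 4, 6 and 7 were at 0 counts in the HFE rats and none in BAIBA rats 1 and 3 or HF rat 1. The 3 rats with the highest sums also had other transcripts in excess, of lung in BAIBA rat 1, of thymus and fat in HF rat 1 and of fat in BAIBA rat 3. In BAIBA rat 3 the defining lung markers were at or near 0, with 2 counts of Sftpc and 0 of Sftpb, Sftpa1 and Lamp3, and the thymic sum was 25.5 CPM, within the range of the other rats. There Adipoq, the adipocyte hormone, had 166 counts, against 217 in HF rat 1, 54 in Sham rat 3 and at most 18 in the others. In BAIBA rat 1, which had the highest sum of members, Adipoq had 3 counts, while Cfd, also on the adipocyte list, had 182 counts there, 200 in BAIBA rat 3 and at most 113 in the others, and the list summed to 10.9 CPM. The part of fat, lung or thymus in the mesothelial counts was not tested.

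**Figure D3:**
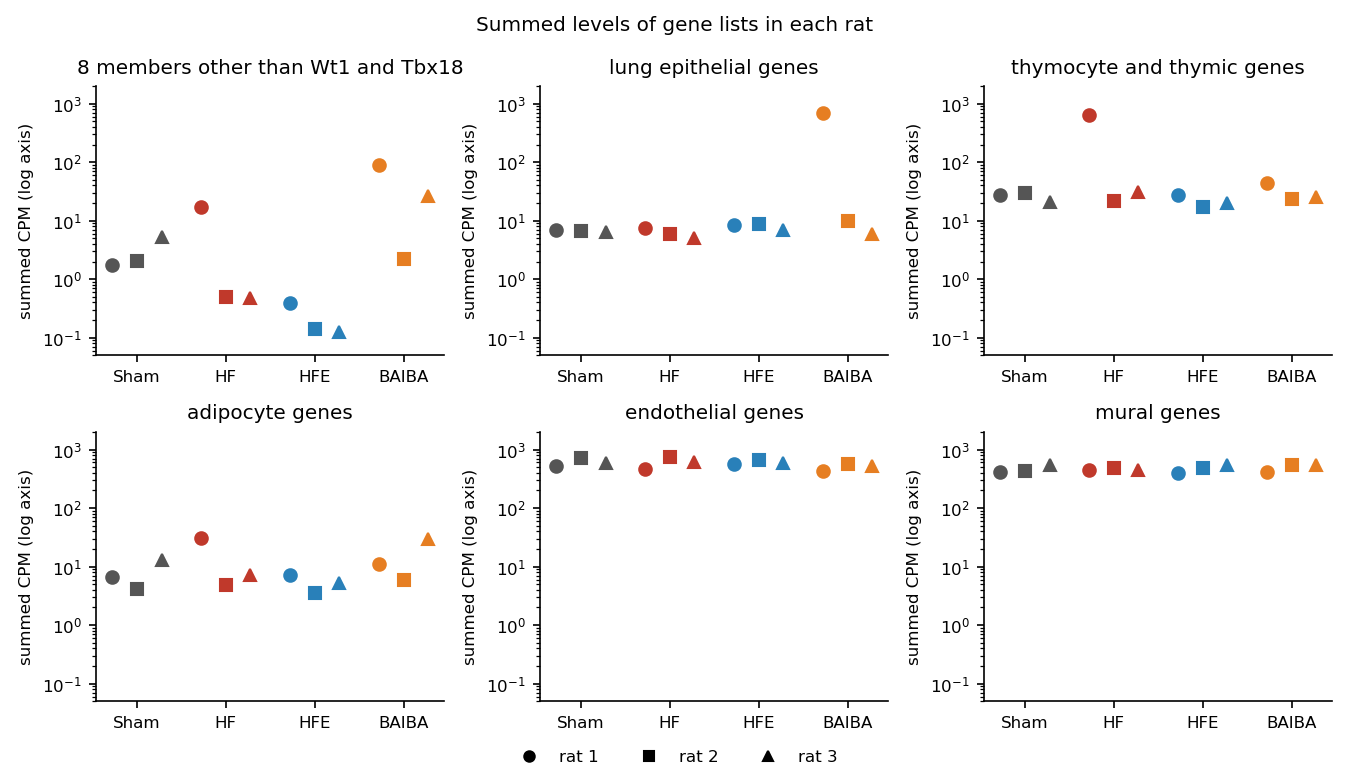
Each panel plots the summed CPM of a gene list on a log axis for each rat by group (circle, rat 1; square, rat 2; triangle, rat 3). The 8 members peak in BAIBA rat 1, BAIBA rat 3 and HF rat 1, the lung genes stand out only in BAIBA rat 1 (701 CPM) and the thymic genes only in HF rat 1 (648 CPM). The endothelial and mural sums vary less, at 423 to 754 and 395 to 540 CPM.

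HF was compared with Sham to set infarcted beside uninjured hearts in sedentary rats. Msln was 0.40 higher in HF on the log2 scale (standard error 1.58), and without HF rat 1 it was 5.24 lower (log2 fold change -5.24, standard error 1.13). HF rats 2 and 3 had 1 and 0 counts of Msln, so the size of the change without HF rat 1 rests on the floor. With all rats Msln was also lower with the replicate block (-1.34) and with limma on log2(FPKM + 0.1) (-1.01) or log2(FPKM + 1) (-0.048). It thus had no settled direction. Wt1 was 0.17 higher (standard error 0.18) and Tbx18 0.20 higher (standard error 0.29). Without HF rat 1, the rat with the lowest Wt1, Wt1 was 0.35 higher (standard error 0.12, adjusted p = 0.488 by edgeR). Tbx18 was then 0.23 higher (standard error 0.33). A call was an adjusted p under 0.05 together with a change of over 1 on the log2 scale. By edgeR's quasi-likelihood test with all rats, none of the 3 members that passed the filter on low counts was called or had an unadjusted p under 0.05. Without HF rat 1 edgeR called none, and Msln and Wt1 had an unadjusted p under 0.05, beside 8.53% of all genes. DESeq2 also called none. Of all 14957 genes tested 0% were called and 6% had an unadjusted p under 0.05, and DESeq2 called 0.152% of the genes it tested. The rats of the groups overlapped for all 10 members, and 9.64% of all genes with a count did not overlap.

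HFE was compared with Sham to set exercised infarcted hearts against uninjured ones. For Msln the log2 fold change was -5.50 in HFE (standard error 1.00), and 5 members (Msln, Upk3b, Cdh3, Lrrn4 and Tbx4) lay in all HFE rats below all Sham rats, while Wt1 lay above, at 19.0 to 23.5 CPM against 16.9 to 18.6 CPM. Of all genes 13.8% did not overlap between these groups. In the Sham rats these 5 had between 1 and 38 counts each. The HFE rats had 1 count of Msln in all, so the size of its change rests on the floor. By edgeR none of the 3 members tested was called and 1 (Msln) had an unadjusted p under 0.05, beside 0% and 11.2% of all genes. DESeq2 called 1 (Msln, lower) beside 0.461% of all genes. It gave Upk3b, Cdh3 and Lrrn4 an unadjusted p under 0.05 but no adjusted p. In DESeq2, 1443 genes had an unadjusted p under 0.05, where 15610 had an adjusted p. The adipocyte genes summed to 3.60 to 7.12 CPM in the HFE and 4.15 to 13.0 CPM in the Sham rats, and 6 macrophage genes to 62.1 to 89.7 CPM in the HFE and 112 to 127 CPM in the Sham rats, without overlap. Of the macrophage genes none was called by edgeR, all 6 had a log2 fold change below 0 (median -0.64) and 5 had an unadjusted p under 0.05. Other lists moved too, with an unadjusted p under 0.05 by edgeR for 5 of 6 cardiomyocyte, 4 of 5 endothelial, 3 of 6 fibroblast and 0 of 6 mural genes. The fibroblast genes were all lower, while 4 cardiomyocyte and 4 endothelial genes were higher. The part of any of these cell types in the result was not tested. BAIBA rat 1 and HF rat 1 have no part in this comparison. Myl7, a gene of atrial muscle, differed within both groups, at 474, 175 and 618 counts in Sham and 487, 17 and 7 in HFE. What such differences between pieces of tissue did to the members was not tested.

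HFE was compared with HF to set exercised beside sedentary rats after an infarct. Only Wt1 and Tbx18 passed the filter. Wt1 was 0.061 higher in HFE on the log2 scale (standard error 0.19) and Tbx18 differed by -0.0073 (standard error 0.19). Neither was called by edgeR or had an unadjusted p under 0.05 in it, beside 0% and 7.62% of all genes. DESeq2 called no member, beside 0.157% of all genes, and gave an adjusted p only for Wt1 and Tbx18. Of the other members 4 (Upk3b, Cdh3, Epcam and Lrrn4), all lower in HFE, had an unadjusted p under 0.05 in DESeq2. Cdh3 and Epcam also had one in edgeR without a filter. Of all genes, 1096 had one in DESeq2, where 13985 had an adjusted p. In edgeR without a filter it was 1276 of 23384 genes. These fits all include HF rat 1. HF rats 2 and 3, with 8 and 9 counts of the 8 other members, were close to the HFE rats, with 6, 2 and 2 counts, so that the HF group exceeded the HFE group mainly through HF rat 1, with 304 counts. The groups overlapped for all 10 members, and 11.3% of all genes did not.

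BAIBA was compared with Sham to set treated infarcted hearts against uninjured ones. Msln was 3.56 higher (standard error 1.35), Upk1b 4.14 higher (standard error 1.43), Lrrn4 3.78 higher (standard error 1.54) and Cdh3 2.51 higher (standard error 1.14) on the log2 scale. Without BAIBA rat 1, Msln was 2.06 higher (standard error 1.10), Upk1b 2.63 higher (standard error 1.22), Lrrn4 2.85 higher (standard error 1.74) and Cdh3 0.73 higher (standard error 0.88), and none of them had an unadjusted p under 0.05 by edgeR. None of the 6 members tested was called by edgeR and 3 had an unadjusted p under 0.05 in it. DESeq2 called none and gave 8 (all but Wt1 and Tbx18) an unadjusted p under 0.05. Of all genes, edgeR called 0.0402% and gave 7.41% an unadjusted p under 0.05, and DESeq2 called 0.422%. In DESeq2, 1115 genes had an unadjusted p under 0.05, where 18486 had an adjusted p. BAIBA rat 2 was as low as the Sham rats, with 34 counts of the 8 members against 30, 32 and 81. Without it edgeR called 1 member, Upk3b (log2 fold change 4.52, standard error 0.44), beside 9 genes higher and 7 lower of all 15307. Upk3b did not pass the filter with all rats. It had 1 count in BAIBA rat 2 and 188 and 103 in the BAIBA rats kept. This call therefore gives no evidence of a difference between the groups. Only Tbx4 did not overlap, through counts of 2 to 4 in BAIBA rats 2 and 3 and 1 or 2 in the Sham rats, and 10.5% of all genes did not.

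BAIBA was compared with HF to set treated beside untreated rats after an infarct. The log2 fold changes of Msln, Upk3b, Upk1b, Cdh3, Krt19 and Lrrn4 lay between 1.72 and 3.14, each with a standard error between 1.29 and 1.95, and those of Wt1 and Tbx18 were -0.0059 (standard error 0.20) and 0.098 (standard error 0.21). None of the 8 members tested by edgeR was called or had an unadjusted p under 0.05, beside 0% and 5.55% of all genes. DESeq2 called none, beside 0.184% of all genes, and gave 1 (Tbx4) an unadjusted p under 0.05. In DESeq2, 952 genes had an unadjusted p under 0.05, where 16829 had an adjusted p. The library left out moved Msln widely, from 3.14 to 1.65 without BAIBA rat 1, to 8.79 without HF rat 1 and to 7.30 without both. HF rats 2 and 3 had 1 and 0 counts of Msln, so the sizes of 8.79 and 7.30 rest on the floor. Cdh3 was at -0.044 and Krt19 at -0.57 without BAIBA rat 1. Changes of Upk3b, Upk1b and Lrrn4 are given here with all rats only. Without both rats edgeR still called no member. Tbx4 alone did not overlap between the groups, while 9.29% of all genes did not.

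BAIBA was compared with HFE to set the treatment beside exercise in infarcted hearts. Msln was 9.06 higher in BAIBA on the log2 scale (standard error 2.16), and without BAIBA rat 1 it was 7.55 higher (standard error 1.58). All BAIBA rats lay above all HFE rats for 6 members (Msln, Upk3b, Upk1b, Cdh3, Epcam and Tbx4) and below for none, where 12.1% of all genes did not overlap in 1 direction or the other. By edgeR none of the 3 members tested was called and 1 (Msln) had an unadjusted p under 0.05, beside 0.0808% and 9.57% of all genes. In this comparison the same-numbered rats deviated together, and with the replicate number as a block edgeR called Msln (log2 fold change 9.06, standard error 0.39), beside 0.216% of all genes. The HFE rats had 1 count of Msln in all, so the size of every Msln change in this comparison rests on the floor. The 0.39 comes from F and does not measure that uncertainty. No label says that rats of the same number belong together. DESeq2 called the same 6 members that did not overlap, all higher, beside 1.08% of all genes. It was not run without BAIBA rat 1, which held 77 of the 83 Tbx4 counts and 92 of the 100 Epcam counts in BAIBA. In BAIBA rats 2 and 3 these genes had 4 and 2 counts (Tbx4) and 5 and 3 counts (Epcam). Wt1 (-0.065, standard error 0.14) and Tbx18 (0.11, standard error 0.23) were not called under any of these. The macrophage genes summed to 99.9 to 212 CPM in BAIBA against 62.1 to 89.7 CPM in HFE, without overlap. None was called by edgeR, 4 of 6 had an unadjusted p under 0.05 and their median log2 fold change was 0.99, against 2 of 6 and 0.44 without BAIBA rat 1. With all rats, the same count by edgeR was 3 of 6 for cardiomyocyte, 3 of 5 for endothelial, 2 of 6 for fibroblast and 0 of 6 for mural genes. The part of any of these cell types in the members' values was not tested.

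The other genes known from epicardium and mesothelium, a list of 24 with 23 in the table, were looked at for the same comparisons. None was called by edgeR in any of the 6. In BAIBA against HFE, 9 of the 12 that passed the filter had an unadjusted p under 0.05 (9.57% of all genes), and the list's median log2 fold change was 0.87, beside 0.00049 over all 14844 genes. When BAIBA rat 1, in which 14 of the 23 genes were highest, was left out, it was 5 of 12 (10.7% of all genes) with a median of 0.82. Single genes moved more, Pdpn from 1.81 to 0.66, Cldn15 from 1.79 to 0.96 and Rspo1 from 2.14 to 1.59. In BAIBA against Sham, 7 of 14 had an unadjusted p under 0.05 (7.41% of all genes), with a median of 0.58, beside 0.0040 over all genes, and without BAIBA rat 1 it was 5 of 14 (8.45% of all genes) with a median of 0.56. The same counts were 0 of 12 in HF against Sham, 0 of 12 in HFE against Sham, 1 of 12 in HFE against HF and 2 of 15 in BAIBA against HF, and the medians were 0.26, -0.14, -0.46 and 0.97. In BAIBA against HF the median was 0.31 without BAIBA rat 1 (1 of 15 genes), 1.31 without HF rat 1 (7 of 15) and 0.44 without both (4 of 12). Without HF rat 1 it was 0.12 in HF against Sham (1 of 13) and -0.37 in HFE against HF (0 of 12).

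Aldh1a2, the enzyme by which epicardial cells make retinoic acid, was higher in all BAIBA rats than in any Sham or HFE rat, while BAIBA rat 2 lay below HF rat 1 (4.36 against 4.47 CPM). It had 44, 22 and 12 counts in Sham, 78, 33 and 64 in HF, 24, 19 and 32 in HFE and 175, 68 and 101 in BAIBA. Its log2 fold change in BAIBA was 2.03 against HFE (standard error 0.35, adjusted p = 0.131 by edgeR) and 2.08 against Sham (standard error 0.46, adjusted p = 0.368 by edgeR). Without BAIBA rat 1 these were 1.66 (adjusted p = 0.0990 by edgeR) and 1.71 (adjusted p = 0.326 by edgeR). Against HF it was 1.03 higher (standard error 0.39, adjusted p = 0.851 by edgeR), and 0.67 higher without BAIBA rat 1. Gpm6a, a membrane glycoprotein of neurons that mesothelial cells also make, had 363, 291 and 398 counts in BAIBA and between 29 and 251 in the other rats. Against Sham it was 1.03 higher (standard error 0.15, adjusted p = 0.0927 by edgeR), and 1.06 higher without BAIBA rat 1. DESeq2 called Aldh1a2 and Gpm6a in BAIBA against Sham, and Aldh1a2, Rspo1, Efemp1 and Nkain4 in BAIBA against HFE, all higher, and called no gene of the list in the other 4 comparisons. With the replicate block, edgeR called Efemp1, a matrix glycoprotein, in BAIBA against HFE (1.14, standard error 0.14, adjusted p = 0.0476).

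**Figure D4:**
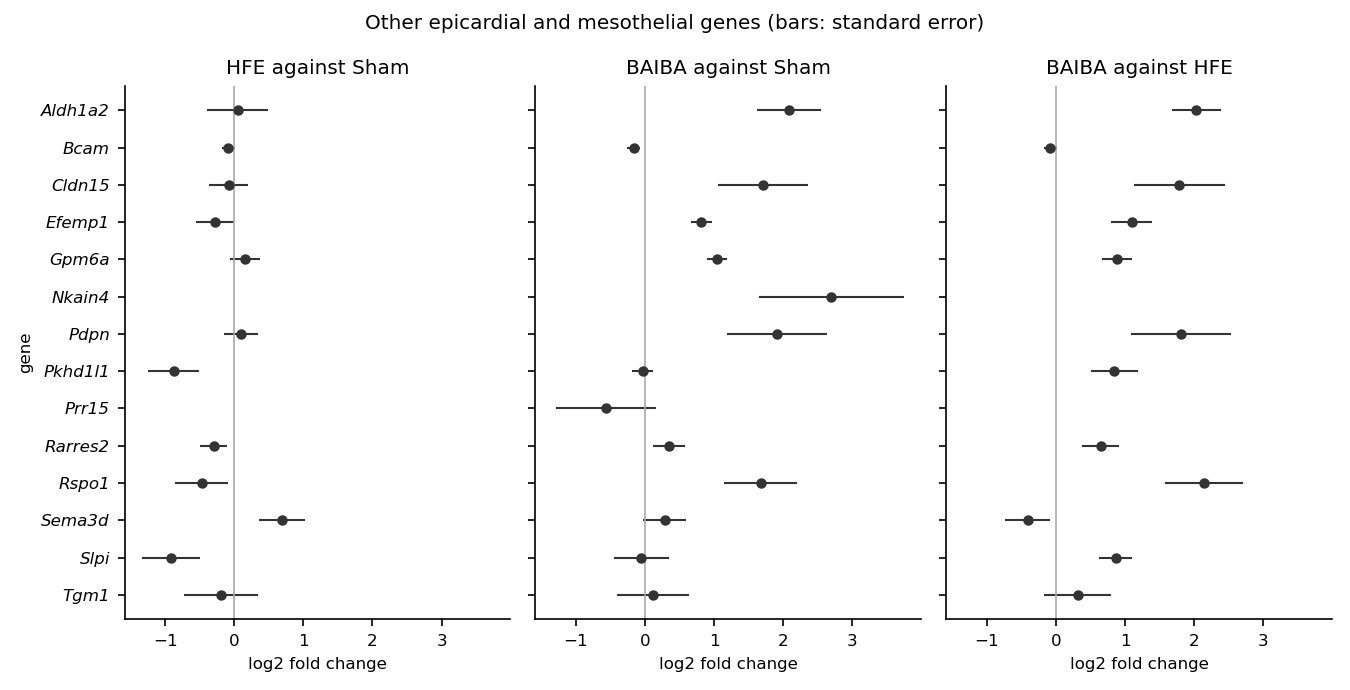
Points are log2 fold changes from edgeR and bars their standard errors, for the genes of the other epicardial and mesothelial list that passed the filter in each of 3 comparisons. None was called, and Aldh1a2 is at 2.08 in BAIBA against Sham, 2.03 in BAIBA against HFE and 0.050 in HFE against Sham.

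The keratins that pair in simple epithelia followed BAIBA rat 1 and HF rat 1. Krt7 had 173 counts in BAIBA rat 1, 88 in HF rat 1 and at most 3 in any other rat. Krt8 had 341 and 106 counts in the same rats and 26 in BAIBA rat 3, and Krt18 had 129, 62 and 9. In BAIBA rat 3, with high Msln, Upk3b and Lrrn4, Krt7 was thus at 2 counts. Of the 4 most abundant genes of the list, Bcam, a laminin receptor, was even in all rats, at 118 to 148 CPM, Efemp1 was at 10.3 to 41.0 CPM, Pkhd1l1 at 5.95 to 27.8 CPM and Rarres2, the adipokine chemerin, at 8.67 to 22.4 CPM.

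Genes that steer the epicardium or its transition to mesenchyme did not pass the test either. Of 15 such genes, all tested, edgeR called none in any comparison, and the number with an unadjusted p under 0.05 was 5 in HF against Sham, 1 in HFE against Sham, 3 in BAIBA against Sham, 3 in HFE against HF, 1 in BAIBA against HF and 4 in BAIBA against HFE, where 6%, 11.2%, 7.41%, 7.62%, 5.55% and 9.57% of all genes had one. Cyp26b1, which breaks down retinoic acid, had the lowest adjusted p, in BAIBA against Sham (log2 fold change 1.23, standard error 0.23, adjusted p = 0.211 by edgeR). Zeb1, a repressor of epithelial genes, was the most abundant of these, with 998 to 1624 counts, and Yap1, Igf2 and Rxra had 476 to 687, 210 to 802 and 339 to 656 counts. The 5 other T-box factors of the heart and the 5 other cadherins had no gene called by edgeR. Tbx5, Tbx20, Tbx3 and Tbx2 had between 59 and 481 counts in every rat, against at most 4 counts of Tbx4 outside BAIBA rat 1. Neural cadherin (Cdh2) had 3941 to 6021 counts, the endothelial cadherin Cdh5 2260 to 4557, Cdh13 657 to 1238 and Cdh11 202 to 716, where Cdh3 had at most 73.

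The genes most like the members were sought among 11841 genes with a symbol and a mean of at least 1 CPM, by Pearson's r of log2(CPM + 0.1) over the 12 rats with the mean standardized profile of the 8 members correlated above, Wt1 and Tbx18 included. Il17re, a receptor subunit for an epithelial interleukin, was the closest, with r = 0.960, and had 98 counts in BAIBA rat 1, 43 in BAIBA rat 3, 22 in HF rat 1 and 3 to 11 in the others. Cldn15, a claudin of tight junctions (r = 0.937), and Rspo1, a secreted enhancer of Wnt signalling (r = 0.930), came next, followed by C3, Il1rl1, Plod2, Ms4a2, Cpa3, Gpc3 and Serp1 (r = 0.904 to 0.920). Cpa3 and Ms4a2 are genes of mast cells. Cpa3 had 397 counts in BAIBA rat 1, 91 in BAIBA rat 3, 88 in HF rat 1 and at most 50 elsewhere. Without BAIBA rat 1, Il17re stayed the closest, with r = 0.925, and Rspo1 and C3 were still among the 10. Taken singly, Msln was most like Upk1b (r = 0.960), Upk3b like Lrrn4 (r = 0.979), Krt19 like Il1rl1 (r = 0.956), Cdh3 like Necap2 (r = 0.942), Tbx4 like Eps8l2 (r = 0.930), Epcam like Scarb1 (r = 0.923), Wt1 like Xrcc3 (r = 0.916) and Tbx18 like Ccdc138 (r = 0.825). These are the highest of many values over 12 libraries and carry no test.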

How the data were processed

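The libraries were paired-end and poly(A)-selected. The authors used HISAT2 for alignment and StringTie for further genes, and deposited featureCounts counts per gene, without normalization, and FPKM values. The labels name the mouse build mm9 while the identifiers are those of rat genes, and use of strand in counting is not given in the sources used here. In RefSeq, Upk3b, Krt19 and Tbx4 overlap other genes, so their reads may be shared.

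Groups and replicate numbers came from the labels. Each pair of groups was fitted in R 4.3.3 with edgeR 4.0.16 (TMM, filterByExpr, robust quasi-likelihood, Benjamini-Hochberg over all genes tested). Calls needed an adjusted p below 0.05 and a change of more than 1 on the log2 scale. Standard errors were taken as the size of the change over the root of F. CPM used TMM factors over 12 rats and a pseudocount of 0.1 on the log scale. Alternatives were DESeq2 1.42.0, RLE or library-size scaling, no filter, a fit of all rats, calls by adjusted p only, limma 3.58.1 with log2(FPKM + 0.1) or log2(FPKM + 1) as input, the replicate block, and each rat left out. The procedure was tested on simulated data. Counts of rats in the same group differed by more than sampling noise (chi-square over its degrees of freedom, 12.6 to 36.4), so each rat was used as 1 replicate.

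The members and lists were chosen with earlier results of these data known. The text names all 10 members, called genes and up to 4 of the most abundant genes of a list, the 10 genes most like the members and the gene most like each member. Others (Cdh1, Krt7, Krt8, Krt18, Adipoq, Aldh1a2, Gpm6a, Upk3bl1, Cyp26b1 and the lung and thymic genes) were named after their values were seen. Muc16 was not analysed here. The replicate numbers come from the titles. Deviations from the group means of same-numbered rats correlated at 0.195, 0.261 and 0.138 in BAIBA against HFE, and in no other comparison were all 3 over 0.1.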

Additional observations from a re-analysis of the deposited data

How the results depend on the processing

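With DESeq2 the number of members called was 1 in HFE against Sham and 6 in BAIBA against HFE, and of the other epicardial and mesothelial list 2 in BAIBA against Sham and 4 in BAIBA against HFE. With no filter it was 1 member in HFE against Sham (Msln) and 1 gene of the list in each of BAIBA against Sham (Gpm6a) and BAIBA against HFE (Aldh1a2). With the replicate block it was 1 member and 1 gene of the list in BAIBA against HFE, and in the other 5 comparisons the block changed no call of a member or of the list. Leaving out each rat in turn, done with edgeR only, gave 0 to 1 members in BAIBA against Sham and in BAIBA against HFE, in each case 1 (Upk3b or Lrrn4) without BAIBA rat 2, and 0 in the other comparisons. Neither gene passed the filter of its comparison with all rats, and BAIBA rat 2 had 1 count of Upk3b and 0 of Lrrn4. The other settings, limma included, called none of the members or of the list. The cause was not tested, other than that without a filter more genes are tested.

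The median fold range of the members was 65.4, and 7.44 with a pseudocount of 1, 20.5 without BAIBA rat 1 and 7.63 without BAIBA rat 1 and HF rat 1, the last chosen after seeing the data. The median correlation of 0.807 was 0.860 by FPKM, 0.864 with a pseudocount of 1, 0.489 without both of these rats and 0.654 to 0.841 with each rat left out. Of 352 log2 fold changes of single members under the alternatives, 326 stayed within 1 standard deviation between replicates of the main value and 26 did not. Counts under 10 in most rats limit what could be seen for the members other than Msln, Wt1 and Tbx18, and 7 of the 10 did not pass the filter in HFE against Sham or in BAIBA against HFE.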

Other observations

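Without BAIBA rat 1, the genes most like the members over the remaining 11 rats included Scd, the enzyme that makes monounsaturated fatty acids (r = 0.895), Gdf10, a growth factor of the TGF-β family (r = 0.912), and Osr1, a transcription factor of embryonic mesenchyme (r = 0.912). Scd had 783 counts in HF rat 1, 218 in BAIBA rat 3, 234 in BAIBA rat 1 and 0 to 9 counts in every other rat. Gdf10 had 57, 153 and 32 counts in these rats and 2 to 6 elsewhere. Osr1 had 12 to 26 counts in the HFE rats, 33 to 52 in the Sham rats, 114, 23 and 53 in the HF rats and 157, 47 and 148 in the BAIBA rats. These genes were named after their values were seen, and the values are descriptions with no test.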
